A study of Mus musculus with 6 samples.

Results

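Interferon-stimulated genes are the genes that a cell switches on when an interferon binds its receptor, and they were followed here through mouse bladder urothelium, carcinoma in situ and invasive carcinoma. The 38 genes were taken by symbol as textbook members of the response, with earlier results of these data known. A gene was measured through its probe sets that carry 1 symbol in the array's annotation, and where a gene had several, the probe set with the highest mean over the 6 arrays stood for it. In this way 35 of the 38 genes were measured, among 18193 genes in all. Isg15 has a probe set that carries several symbols, and no probe set carries the symbol Oas1g or Ifi44 in the annotation table, so these 3 genes were not analysed here.

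RNA came from bladder urothelium that was taken from stained frozen sections by laser capture, in which areas picked under a microscope are lifted from the slide, and was hybridised to Affymetrix 3' expression arrays. There were 3 groups of 2 arrays each. Invasive carcinoma and carcinoma in situ, a flat high-grade lesion that has not crossed the basement membrane, both came from FVB/N mice with the genotype H-ras+/-, p53-/-, and normal urothelium came from wild-type FVB/N mice. All mice were 8 months old. The labels call the lesion-bearing mice double transgenic, and they name neither the promoter that drives H-ras nor the animal behind each captured region, so the p-values measure the spread between these arrays only, which may be technical. Lesion and genotype changed together against normal urothelium and cannot be told apart there, while the comparison of invasive carcinoma with carcinoma in situ held the genotype constant.

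In the interferon pathway, type I and type III interferons act through receptors whose kinases phosphorylate STAT proteins, and Stat2 joins Irf9 in a complex that binds a DNA element called the interferon-stimulated response element (ISRE). Type II interferon acts through another receptor and a STAT dimer that binds the gamma-activated site (GAS). The induced genes encode sensors of foreign or misplaced nucleic acid, enzymes that block viral replication, and transcription factors that feed back into the response. Interferon-stimulated genes are also known to be active in epithelial tumours and in the macrophages and stromal cells around them.

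Elements of this kind stand in the promoters of several genes that the results below turn on. The windows are those of RefSeq in mouse build GRCm38.p6, from 250 bases before to 50 bases after each annotated start, read 5′ to 3′ on the strand of the gene, and the 6 shown belong to genes with large differences between the groups. Letters in capitals are matches to the ISRE core (GAAA, any 2 bases and GAAA again, or TTTC, any 2 bases and TTTC where it lies on the other strand) or to the GAS core TTCNNNGAA, which reads the same on both strands.
Ifit1, chr19:34640639-34640938, plus strand: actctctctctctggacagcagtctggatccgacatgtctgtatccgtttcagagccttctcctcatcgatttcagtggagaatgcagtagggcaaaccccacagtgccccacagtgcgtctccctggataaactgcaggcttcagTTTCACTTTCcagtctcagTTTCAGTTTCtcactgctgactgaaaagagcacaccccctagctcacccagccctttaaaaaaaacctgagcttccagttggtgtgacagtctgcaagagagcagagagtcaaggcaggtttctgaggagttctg
Ifit3, chr19:34583279-34583578, plus strand: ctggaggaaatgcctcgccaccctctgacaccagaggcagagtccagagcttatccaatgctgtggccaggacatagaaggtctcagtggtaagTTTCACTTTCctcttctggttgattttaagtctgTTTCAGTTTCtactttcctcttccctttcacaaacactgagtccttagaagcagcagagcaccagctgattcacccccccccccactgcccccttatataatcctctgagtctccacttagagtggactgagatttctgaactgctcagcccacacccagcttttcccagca
Rsad2, chr12:26456403-26456702, minus strand: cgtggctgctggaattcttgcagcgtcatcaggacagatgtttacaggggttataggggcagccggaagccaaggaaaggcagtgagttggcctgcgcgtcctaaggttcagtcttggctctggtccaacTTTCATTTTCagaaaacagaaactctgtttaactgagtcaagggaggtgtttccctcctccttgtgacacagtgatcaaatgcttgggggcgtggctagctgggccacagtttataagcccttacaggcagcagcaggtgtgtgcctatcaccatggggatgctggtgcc
Gbp3, chr3:142559794-142560093, plus strand: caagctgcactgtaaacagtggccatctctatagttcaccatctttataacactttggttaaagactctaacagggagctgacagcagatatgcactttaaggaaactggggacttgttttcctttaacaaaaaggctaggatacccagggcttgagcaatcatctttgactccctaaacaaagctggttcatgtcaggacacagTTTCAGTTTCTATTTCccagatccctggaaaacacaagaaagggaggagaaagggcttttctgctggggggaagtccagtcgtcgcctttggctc
Bst2, chr8:71537423-71537722, minus strand: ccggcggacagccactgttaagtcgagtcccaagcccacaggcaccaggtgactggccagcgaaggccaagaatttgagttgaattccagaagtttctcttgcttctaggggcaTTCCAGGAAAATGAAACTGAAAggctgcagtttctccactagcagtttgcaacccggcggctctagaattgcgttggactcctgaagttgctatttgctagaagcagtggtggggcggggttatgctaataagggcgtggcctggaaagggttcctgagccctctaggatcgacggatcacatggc
Ifitm3, chr7:141010695-141010994, minus strand: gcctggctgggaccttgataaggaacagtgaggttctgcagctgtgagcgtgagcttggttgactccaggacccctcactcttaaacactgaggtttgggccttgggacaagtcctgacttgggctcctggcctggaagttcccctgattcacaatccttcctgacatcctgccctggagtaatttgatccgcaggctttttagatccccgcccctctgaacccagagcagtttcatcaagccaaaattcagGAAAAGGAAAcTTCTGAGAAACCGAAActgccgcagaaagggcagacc

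Ifit1 and Ifit3 each held a pair of cores on the other strand, the first bases of which lay 104 and 85 bases before the start in Ifit1 and 156 and 122 bases before it in Ifit3. Rsad2 held 1 core, 120 bases before the start. In Gbp3 and in Bst2 the cores overlapped each other, at 45 and 39 bases before the Gbp3 start and at 130 and 124 bases before the Bst2 start, and the Bst2 stretch also overlapped a GAS core. The Ifitm3 cores lay just after its start, with a GAS core that overlapped 1 of them. Of the 38 genes 30 had a window, and 15 of these 30 (50%) held the ISRE core, against 1079 of 27025 genes in the whole promoter table (3.99%). The GAS core stood in 8 of the 30 (26.7%), against 9.55% of all genes in the table. Among the members with a window, the ISRE core stood in 10 of 16 that were higher in invasive carcinoma than in normal urothelium, in 4 of 9 that were higher in carcinoma in situ than in normal urothelium, in 6 of 9 that were higher in invasive carcinoma than in carcinoma in situ, and in 3 of 11 that passed in no comparison. A match is a description of the letters in the window. The windows of Xaf1, Irf7, Oasl2 and Irf9 held no ISRE core.

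Some features of the arrays bear on every result. The median log2 signal per array over all 45101 probe sets lay between 6.07 and 6.14. The spread between the arrays of a group, as the SD of the log2 difference over all genes, was 0.425 for invasive carcinoma, 0.220 for carcinoma in situ and 0.689 for normal urothelium. Among the 35 members, Rsad2 lay more than 2-fold apart between the invasive arrays, none did between the carcinoma in situ arrays, and 5 did between the normal arrays (Oas1a, Bst2, Gbp2, Ifi35 and Xaf1). Xist, an RNA made from the silenced X chromosome of females, and the Y-linked Kdm5d read 10.28 and 6.58 on invasive array 1 and 13.37 and 7.62 on normal array 2, so these 2 arrays carried Xist and Y-linked signal together, and counts without this pair of arrays are given below. The epithelial genes Krt5, Krt7, Krt8, Krt18, Krt19, Epcam and Cdh1 read between 11.76 and 14.22 on all 6 arrays. Of 18 urothelial markers 7 were lower in invasive carcinoma than in normal urothelium by limma, among them the uroplakins Upk1a, Upk1b, Upk2, Upk3a and Upk3b, the plaque proteins of the urothelial surface. Upk3a read 6.84 and 8.91 in invasive carcinoma, against 14.09 and 13.63 in normal urothelium.

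Invasive carcinoma was compared with normal urothelium first, as the widest contrast of the design. By limma, a linear model over all 6 arrays with the p-value adjusted over 18193 genes by the Benjamini-Hochberg method and called under 0.05, 22 of the 35 members were higher in invasive carcinoma, against 12.6% of all genes. No member passed as lower, against 7.46% of all genes, and 1 member, Tlr3, was lower at an unadjusted p under 0.05. Both invasive arrays stood above both normal arrays for 30 members (29.7% of all genes did so) and below them for 1 member (27.1% of all genes). The median log2 difference of the members was 1.61, and that of all genes was 0.00023. A fit with 1 array left out leaves that group a single array. In each such fit, and in every comparison, the count called over all genes rose or fell with the members' count. Leaving out 1 array at a time gave between 16 and 26 members called, the fewest without invasive array 2. Without normal array 2 and invasive array 1 there were 27 higher and 1 lower, while the genes called in all then numbered 8165 rather than 3652.

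Carcinoma in situ was compared with normal urothelium in the same fit, and both contrasts share the normal arrays. Higher in carcinoma in situ were 13 of the 35 members, against 5.74% of all genes, and no member passed as lower, against 3.04% of all genes. Again Tlr3 was the 1 member lower at an unadjusted p under 0.05. The carcinoma in situ arrays both stood above both normal arrays for 27 members (29.3% of all genes) and below them for 1 (25.1%). The members' median log2 difference was 0.86, and that of all genes was 0.00699. Without carcinoma in situ array 1 the members' median was 0.89, and without array 2 it was 0.92. The count of 13 rests on having both carcinoma in situ arrays. Without either of them it did not hold, and nor did the calls over all genes. It was 8 without either invasive array, when Ifih1, Ifit1, Ifit3, Irf7 and Zbp1 no longer passed, and 25 higher with 1 lower without normal array 2 and invasive array 1, when the genes called in all numbered 6352 rather than 1597.

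Invasive carcinoma against carcinoma in situ is the comparison within 1 genotype. Here 11 of the 35 members were higher in invasive carcinoma, against 4.18% of all genes, and no member passed as lower, against 1.31% of all genes, with Mx1 lower at an unadjusted p under 0.05. Both invasive arrays stood above both carcinoma in situ arrays for 23 members (26.4% of all genes) and below them for 4 (31.4%). The median log2 difference was 0.49 for the members and -0.03 for all genes. With only the arrays of the compared groups in the fit, 16 members were higher and 0 lower. The genes called in all then numbered 2493 rather than 999. Gbp2, Oas1a, Rtp4, Sp100 and Xaf1 were the members gained there. Without either carcinoma in situ array 1 member was still called, Ifit3 in both cases, and without invasive array 1 or 2 there were 6 or 5, with Bst2, Gbp3, Oas2, Oas3 and Zbp1 lost in both cases. Without normal array 2 and invasive array 1 there were 16 higher and 2 lower, Mx1 and Lgals3bp, and the genes called in all numbered 5897 rather than 999.

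**Figure D1:**
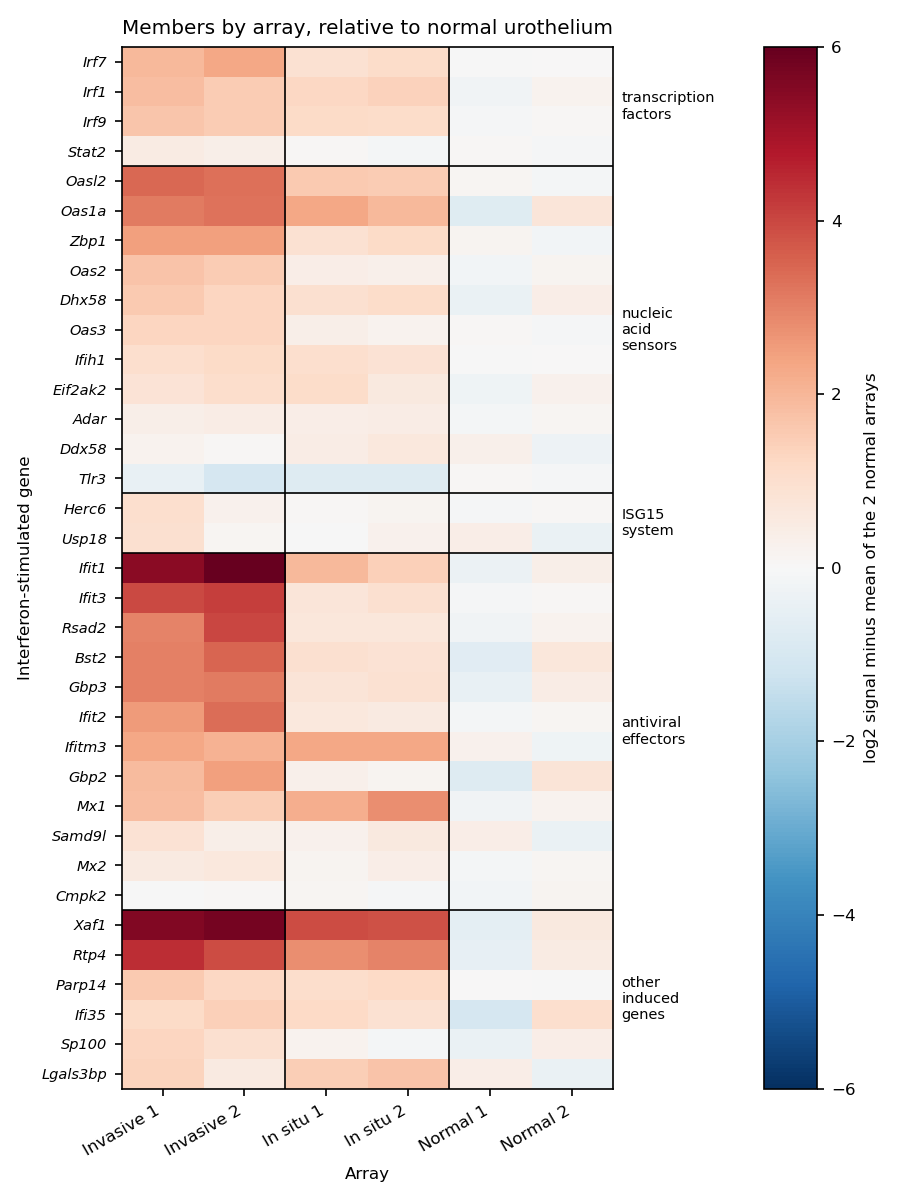
Log2 signal of the 35 measured interferon-stimulated genes (rows, grouped by role) on the 6 arrays (columns), each minus the mean of the 2 normal arrays of that gene, on a colour scale in log2 units. Ifit1 and Xaf1 are the darkest rows in invasive carcinoma, Xaf1, Rtp4, Mx1 and Ifitm3 are coloured in both lesions, and Tlr3 is the blue row.

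Among the transcription factors 3 of 4 were higher in invasive carcinoma than in normal urothelium, 3 of 4 were higher in carcinoma in situ than in normal urothelium, and 1 of 4 was higher in invasive carcinoma than in carcinoma in situ. Irf7, the factor that amplifies transcription of type I interferon genes, read 7.90 and 8.30 in invasive carcinoma, 6.87 and 7.04 in carcinoma in situ, and 5.91 and 6.0 in normal urothelium. The 3 groups did not overlap and formed 3 steps. Its log2 difference was 2.14 ± 0.20 (SE of the model, 2 arrays a group) for invasive carcinoma against normal urothelium (limma adjusted p = 0.00196), 1.0 ± 0.20 for carcinoma in situ against normal urothelium (adjusted p = 0.0378) and 1.15 ± 0.20 between the lesions (adjusted p = 0.0315). The call between the lesions was lost without invasive array 2, and it and the carcinoma in situ call were lost when every array was centred on its median.

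Irf1, a factor induced above all by type II interferon, read 10.41 and 10.10 in invasive carcinoma, 9.80 and 9.95 in carcinoma in situ, and 8.37 and 8.75 in normal urothelium. Both lesions stood clear of normal urothelium, by 1.69 ± 0.21 in invasive carcinoma (limma adjusted p = 0.00512) and 1.31 ± 0.21 in carcinoma in situ (adjusted p = 0.0227). Between the lesions the difference of 0.38 did not pass, and its 95% interval ran from -0.15 to 0.91. Irf9, the DNA-binding partner of Stat2, read 8.74 and 8.59 in invasive carcinoma, 8.19 and 8.15 in carcinoma in situ, and 6.99 and 7.13 in normal urothelium. It was higher by 1.61 ± 0.16 in invasive carcinoma (adjusted p = 0.00245) and by 1.11 ± 0.16 in carcinoma in situ (adjusted p = 0.0165) than in normal urothelium. Stat2 itself read 6.68 and 6.55 in invasive carcinoma, 6.25 and 6.06 in carcinoma in situ, and 6.27 and 6.12 in normal urothelium, and passed in no comparison. Carcinoma in situ and normal urothelium overlapped for it.

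The sensors of nucleic acid were split. Of 11 measured, 7 were higher in invasive carcinoma and 3 in carcinoma in situ than in normal urothelium, and 4 were higher in invasive carcinoma than in carcinoma in situ. The oligoadenylate synthetases, which answer double-stranded RNA by making the messenger that activates RNase L, were all among the 7. Oasl2, a relative of these enzymes, read 9.08 and 8.96 in invasive carcinoma, 7.22 and 7.15 in carcinoma in situ, and 5.74 and 5.52 in normal urothelium. Again the groups formed 3 separate steps. The log2 difference was 3.39 ± 0.17 (10.5-fold) for invasive carcinoma and 1.55 ± 0.17 (2.94-fold) for carcinoma in situ against normal urothelium, with limma adjusted p-values of 0.0005 and 0.00838. Between the lesions it was 1.84 ± 0.17 (adjusted p = 0.00475).

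Oas2 read 8.29 and 8.08 in invasive carcinoma, 6.93 and 6.84 in carcinoma in situ, and 6.38 and 6.73 in normal urothelium. Oas3, its neighbour on chromosome 5 with no gene between them, read 6.41 and 6.39 in invasive carcinoma, 5.44 and 5.30 in carcinoma in situ, and 5.18 and 5.03 in normal urothelium. For both genes the step lay between the lesions, and carcinoma in situ did not pass against normal urothelium. Invasive carcinoma exceeded carcinoma in situ by 1.29 ± 0.19 for Oas2 (limma adjusted p = 0.0206) and by 1.03 ± 0.16 for Oas3 (adjusted p = 0.0227). Against normal urothelium the excess in invasive carcinoma was 1.63 ± 0.19 and 1.30 ± 0.16 (adjusted p = 0.00436 and 0.00473). Oas1a, from the same gene cluster, read 10.81 and 10.94 in invasive carcinoma, 10.02 and 9.63 in carcinoma in situ, and 6.96 and 8.42 in normal urothelium, where the arrays lay far apart. It passed for invasive carcinoma against normal urothelium (3.19 ± 0.48, adjusted p = 0.00873), though not without either invasive array, and it missed the threshold for carcinoma in situ (2.14 ± 0.48, adjusted p = 0.0514).

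Zbp1, a sensor of Z-form nucleic acid that can start cell death by necroptosis, read 7.83 and 7.86 in invasive carcinoma, 6.31 and 6.55 in carcinoma in situ, and 5.54 and 5.21 in normal urothelium. Its 3 groups did not overlap. The log2 difference was 2.47 ± 0.19 for invasive carcinoma and 1.05 ± 0.19 for carcinoma in situ against normal urothelium (limma adjusted p = 0.00117 and 0.0308), and 1.42 ± 0.19 between the lesions (adjusted p = 0.0147). Ifih1, which encodes the cytosolic RNA helicase MDA5, read 8.53 and 8.65 in invasive carcinoma, 8.54 and 8.39 in carcinoma in situ, and 7.52 on each normal array. The lesions overlapped each other and stood above normal urothelium, by 1.07 ± 0.16 in invasive carcinoma (adjusted p = 0.00861, a call lost without invasive array 2) and 0.94 ± 0.16 in carcinoma in situ (adjusted p = 0.0252). Dhx58, a helicase of the same family that tunes it, read 6.98 and 6.70 in invasive carcinoma, 6.37 and 6.53 in carcinoma in situ, and 5.04 and 5.79 in normal urothelium. Only the invasive comparison passed for it (1.43 ± 0.28, adjusted p = 0.0212), and not once an array of either lesion was left out.

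No call was made for Ddx58, Eif2ak2, Adar and Tlr3 in the 3 comparisons. Eif2ak2, the kinase PKR that halts translation upon double-stranded RNA, read 9.80 and 10.04 in invasive carcinoma, 10.04 and 9.57 in carcinoma in situ, and 8.72 and 9.21 in normal urothelium. Both lesions lay above normal urothelium, and the invasive difference of 0.95 ± 0.26 missed the threshold (limma adjusted p = 0.0543). Another probe set of Eif2ak2 read 6.67 and 6.35 in invasive carcinoma, 7.42 and 7.64 in carcinoma in situ, and 3.72 and 4.95 in normal urothelium, with the lesions again above normal urothelium. Tlr3, the endosomal receptor for double-stranded RNA, was the exception in direction, at 9.20 and 8.63 in invasive carcinoma, 8.87 and 8.89 in carcinoma in situ, and 9.74 and 9.55 in normal urothelium. Every lesion array lay below both normal arrays, yet the log2 differences of -0.74 ± 0.23 for invasive carcinoma and -0.77 ± 0.23 for carcinoma in situ did not pass (adjusted p = 0.0811 and 0.110), and with quantile normalization both passed as lower. The Tlr3 probe set used is one that may bind related transcripts by the array's naming, and the other one overlapped between all groups. Adar, the RNA editing enzyme, read between 8.27 and 8.85 on all arrays, and Ddx58, the helicase RIG-I, between 8.39 and 9.32.

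The ISG15 system attaches the small protein ISG15 to other proteins or removes it. Neither of its 2 measured genes passed in any comparison by limma, and neither had an unadjusted p under 0.05. Usp18, which removes ISG15 and damps the type I receptor, read 10.19 and 9.33 in invasive carcinoma, 9.21 and 9.47 in carcinoma in situ, and 9.64 and 8.82 in normal urothelium, and all groups overlapped. Herc6, the ligase for ISG15 in mice, read 7.72 and 6.97 in invasive carcinoma, 6.79 and 6.85 in carcinoma in situ, and 6.63 and 6.77 in normal urothelium. Another Herc6 probe set read 7.31 and 6.98 in invasive carcinoma, 5.84 and 6.10 in carcinoma in situ, and 4.28 and 5.50 in normal urothelium, and there the 3 groups did not overlap.

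Antiviral effectors gave the widest differences between the lesions. Of 12 measured, 9 were higher in invasive carcinoma and 4 in carcinoma in situ than in normal urothelium, and 6 were higher in invasive carcinoma than in carcinoma in situ. The Ifit proteins bind viral RNA, and their genes lie together on chromosome 19. Ifit1 read 9.98 and 10.56 in invasive carcinoma, 6.53 and 6.03 in carcinoma in situ, and 4.24 and 4.94 in normal urothelium. Ifit2 read 7.72 and 8.51 in invasive carcinoma, 5.82 and 5.70 in carcinoma in situ, and 5.05 and 5.30 in normal urothelium. Ifit3 read 8.36 and 8.51 in invasive carcinoma, 5.12 and 5.35 in carcinoma in situ, and 4.33 and 4.43 in normal urothelium. In all 3 genes the invasive arrays stood far above the other 4, and carcinoma in situ lay between invasive carcinoma and normal urothelium.

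Against carcinoma in situ, Ifit1 was higher in invasive carcinoma by 3.99 ± 0.34 log2 units (15.9-fold, limma adjusted p = 0.00405), Ifit2 by 2.36 ± 0.29 (5.12-fold, adjusted p = 0.0112) and Ifit3 by 3.20 ± 0.17 (9.17-fold, adjusted p = 0.00138). Against normal urothelium the invasive difference was 5.68 ± 0.34 for Ifit1 (51.2-fold, adjusted p = 0.00069), 2.94 ± 0.29 for Ifit2 (adjusted p = 0.00235) and 4.06 ± 0.17 for Ifit3 (adjusted p = 0.000419). Carcinoma in situ exceeded normal urothelium by 1.69 ± 0.34 for Ifit1 (adjusted p = 0.0400) and 0.86 ± 0.17 for Ifit3 (adjusted p = 0.0392), and Ifit2 did not pass there. Ifit3 was the member still called between the lesions without either carcinoma in situ array. Close copies of these genes lie between them on the chromosome (Ifit3b and Ifit1bl1 among them), and whether the probes tell the copies apart was not tested.

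Rsad2, which encodes viperin, an enzyme that makes a chain-terminating nucleotide, read 10.13 and 11.14 in invasive carcinoma, 7.83 and 7.85 in carcinoma in situ, and 6.95 and 7.36 in normal urothelium. Its difference was 3.48 ± 0.36 against normal urothelium (limma adjusted p = 0.00263) and 2.79 ± 0.36 against carcinoma in situ (adjusted p = 0.0129) in invasive carcinoma. Carcinoma in situ did not pass against normal urothelium with this probe set. Another Rsad2 probe set, tested on its own, was higher there (1.77 ± 0.29, adjusted p = 0.0279). Cmpk2, a nucleotide kinase whose gene is the direct neighbour of Rsad2 on chromosome 12, read between 6.0 and 6.30 on all 6 arrays and its groups overlapped. A second Cmpk2 probe set did separate them, at 5.83 and 6.61 in invasive carcinoma, 5.37 and 5.12 in carcinoma in situ, and 4.56 and 4.50 in normal urothelium. With every probe set tested on its own, that one was higher in invasive carcinoma than in normal urothelium (1.69 ± 0.28, adjusted p = 0.0142).

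Bst2, or tetherin, holds budding virus at the cell surface and is also a marker of plasmacytoid dendritic cells. It read 10.21 and 10.72 in invasive carcinoma, 8.18 and 8.09 in carcinoma in situ, and 6.51 and 7.89 in normal urothelium. The invasive arrays were above the rest, by 3.26 ± 0.46 against normal urothelium (limma adjusted p = 0.00737, lost without invasive array 2) and 2.33 ± 0.46 against carcinoma in situ (adjusted p = 0.0494). The call between the lesions was also lost with every probe set tested, with arrays centred on their medians and with quantile normalization. Siglech, another gene of plasmacytoid dendritic cells, read between 5.88 and 6.21 on all arrays. Of the 12 measured dendritic cell markers 3, Bst2 itself, Itgax and Tcf4, were higher in invasive carcinoma than in normal urothelium, and 0 were lower. Whether such cells carried part of the Bst2 signal was not tested.

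Guanylate-binding proteins are large GTPases, induced above all by type II interferon, that attack the vacuoles of intracellular pathogens. Gbp3 read 9.40 and 9.50 in invasive carcinoma, 7.15 and 7.33 in carcinoma in situ, and 5.96 and 6.82 in normal urothelium. It was higher in invasive carcinoma by 3.06 ± 0.30 than in normal urothelium (limma adjusted p = 0.00235) and by 2.21 ± 0.30 than in carcinoma in situ (adjusted p = 0.0153). Gbp2 read 9.86 and 10.41 in invasive carcinoma, 8.24 and 8.12 in carcinoma in situ, and 7.19 and 8.71 in normal urothelium, so that carcinoma in situ lay inside the range of the normal arrays. It passed for invasive carcinoma against normal urothelium (2.19 ± 0.50, adjusted p = 0.0329), though not once an array of either lesion was left out. The array's naming marks this Gbp2 probe set as one that may bind other transcripts, and the gene's other probe set read 8.94 and 9.13 in invasive carcinoma, 7.58 and 7.81 in carcinoma in situ, and 6.29 and 6.56 in normal urothelium, with no overlap of the 3 groups.

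Ifitm3 and Mx1 were high in both lesions. Ifitm3, a membrane protein that stops viruses from fusing with the endosome, read 12.73 and 12.54 in invasive carcinoma, 12.77 and 12.73 in carcinoma in situ, and 10.68 and 10.19 in normal urothelium. It was higher by 2.20 ± 0.21 in invasive carcinoma (limma adjusted p = 0.00235) and by 2.32 ± 0.21 in carcinoma in situ (adjusted p = 0.00646) than in normal urothelium, and the difference between the lesions had a 95% interval from -0.65 to 0.41. Mx1, a GTPase against influenza virus whose gene RefSeq lists as a transcribed pseudogene in the reference mouse genome, read 6.63 and 6.25 in invasive carcinoma, 6.93 and 7.55 in carcinoma in situ, and 4.54 and 4.99 in normal urothelium. Both carcinoma in situ arrays stood above the other 4 for Mx1, by 2.48 ± 0.29 over normal urothelium (adjusted p = 0.0109), and invasive carcinoma exceeded normal urothelium by 1.68 ± 0.29 (adjusted p = 0.0141), a call lost without either invasive array. Between the lesions the difference of -0.80 ± 0.29 did not pass (adjusted p = 0.224). Mx2, its paralogue and likewise listed as a transcribed pseudogene, read between 6.10 and 6.83 on the 6 arrays. Samd9l, a growth-restraining gene, read between 8.75 and 10.01, and neither Mx2 nor Samd9l passed in any comparison.

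**Figure D2:**
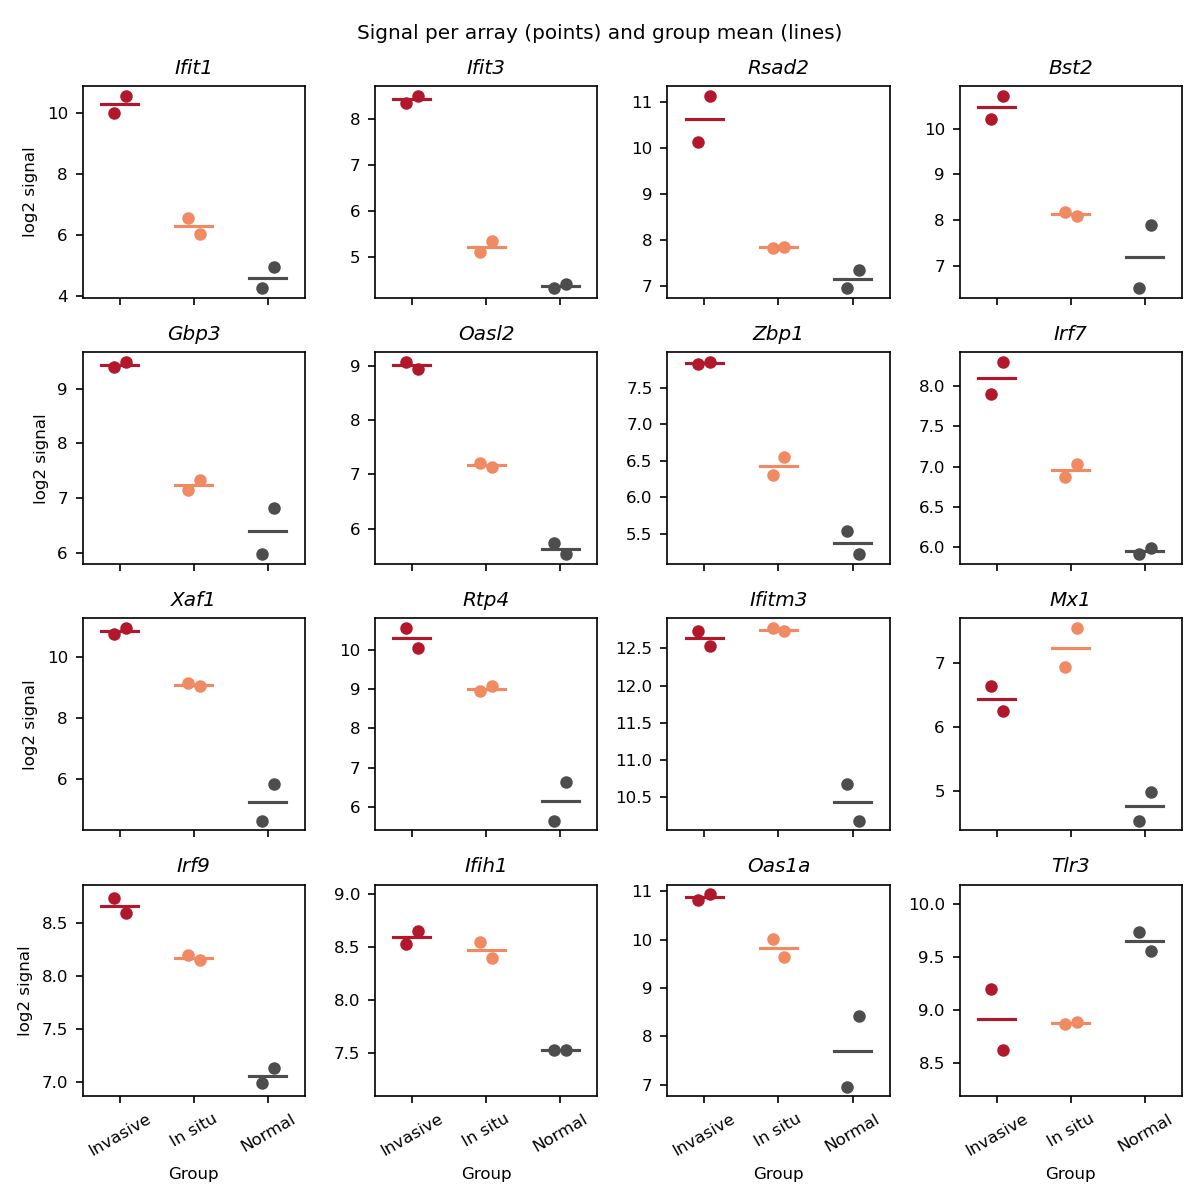
Log2 signal (vertical axis, with its own range in each panel) of 16 interferon-stimulated genes by group, with a point for each array and a line at the mean of the 2 arrays. The upper 8 panels are genes whose invasive arrays stand above carcinoma in situ, with Ifit1 at 9.98 and 10.56 against 6.53 and 6.03. In the panels of Ifitm3, Mx1, Ifih1 and Irf9 both lesions lie far above the normal arrays, and in that of Tlr3 they lie below.

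Of the 6 other induced genes 3 were higher in invasive carcinoma and 3 in carcinoma in situ than in normal urothelium, and none passed between the lesions by limma, with 3 higher in invasive carcinoma at an unadjusted p under 0.05. Xaf1, which opposes the apoptosis inhibitor XIAP, read 10.75 and 10.95 in invasive carcinoma, 9.14 and 9.04 in carcinoma in situ, and 4.62 and 5.82 in normal urothelium. The lesions were far above normal urothelium, by 5.63 ± 0.39 (49.5-fold, limma adjusted p = 0.000913) in invasive carcinoma and 3.87 ± 0.39 (14.6-fold, adjusted p = 0.00772) in carcinoma in situ. In the fit of all 6 arrays the difference between the lesions, 1.76 ± 0.39, missed the threshold (limma adjusted p = 0.0685). Another probe set of Xaf1 read 6.14 and 6.95 in invasive carcinoma, 5.36 and 5.08 in carcinoma in situ, and 4.99 and 5.15 in normal urothelium, where carcinoma in situ and normal urothelium overlapped.

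Rtp4, an interferon-induced chaperone of membrane receptors, read 10.57 and 10.07 in invasive carcinoma, 8.95 and 9.09 in carcinoma in situ, and 5.64 and 6.63 in normal urothelium. The 3 groups did not overlap. It was higher than in normal urothelium by 4.18 ± 0.36 in invasive carcinoma (18.1-fold, limma adjusted p = 0.00175) and by 2.88 ± 0.36 in carcinoma in situ (7.37-fold, adjusted p = 0.0129). Another Rtp4 probe set read 5.37 and 5.95 in invasive carcinoma, 4.63 and 4.65 in carcinoma in situ, and 4.32 and 4.78 in normal urothelium. There carcinoma in situ and normal urothelium overlapped. Parp14, which adds single ADP-ribose units to proteins, read 9.63 and 9.31 in invasive carcinoma, 9.13 and 9.25 in carcinoma in situ, and 8.09 and 8.03 in normal urothelium. Its differences from normal urothelium were 1.41 ± 0.18 in invasive carcinoma (adjusted p = 0.00534) and 1.13 ± 0.18 in carcinoma in situ (adjusted p = 0.0217), and the lesions differed by 0.28 with a 95% interval from -0.16 to 0.73.

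Ifi35, a regulator of innate signalling, read 11.74 and 12.03 in invasive carcinoma, 11.83 and 11.51 in carcinoma in situ, and 9.62 and 11.61 in normal urothelium. Normal array 1 stood far below the other 5, and Ifi35 passed in no comparison with this probe set. By the array's naming it is one that may bind related transcripts. Another Ifi35 probe set read 9.28 and 9.20 in invasive carcinoma, 9.32 and 9.47 in carcinoma in situ, and 7.05 and 7.54 in normal urothelium, and tested on its own it was higher in invasive carcinoma (1.95 ± 0.21, limma adjusted p = 0.00394) and in carcinoma in situ (2.10 ± 0.21, adjusted p = 0.00976). Lgals3bp, a secreted galectin-binding protein, read 10.43 and 9.62 in invasive carcinoma, 10.57 and 10.81 in carcinoma in situ, and 9.47 and 8.70 in normal urothelium. Its carcinoma in situ arrays were the highest, and the difference of 1.61 ± 0.37 from normal urothelium missed the threshold (adjusted p = 0.0566). Sp100, a nuclear body protein, read 7.51 and 7.19 in invasive carcinoma, 6.45 and 6.14 in carcinoma in situ, and 5.84 and 6.64 in normal urothelium, and its invasive difference of 1.11 ± 0.31 missed it as well (adjusted p = 0.0580).

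**Figure D3:**
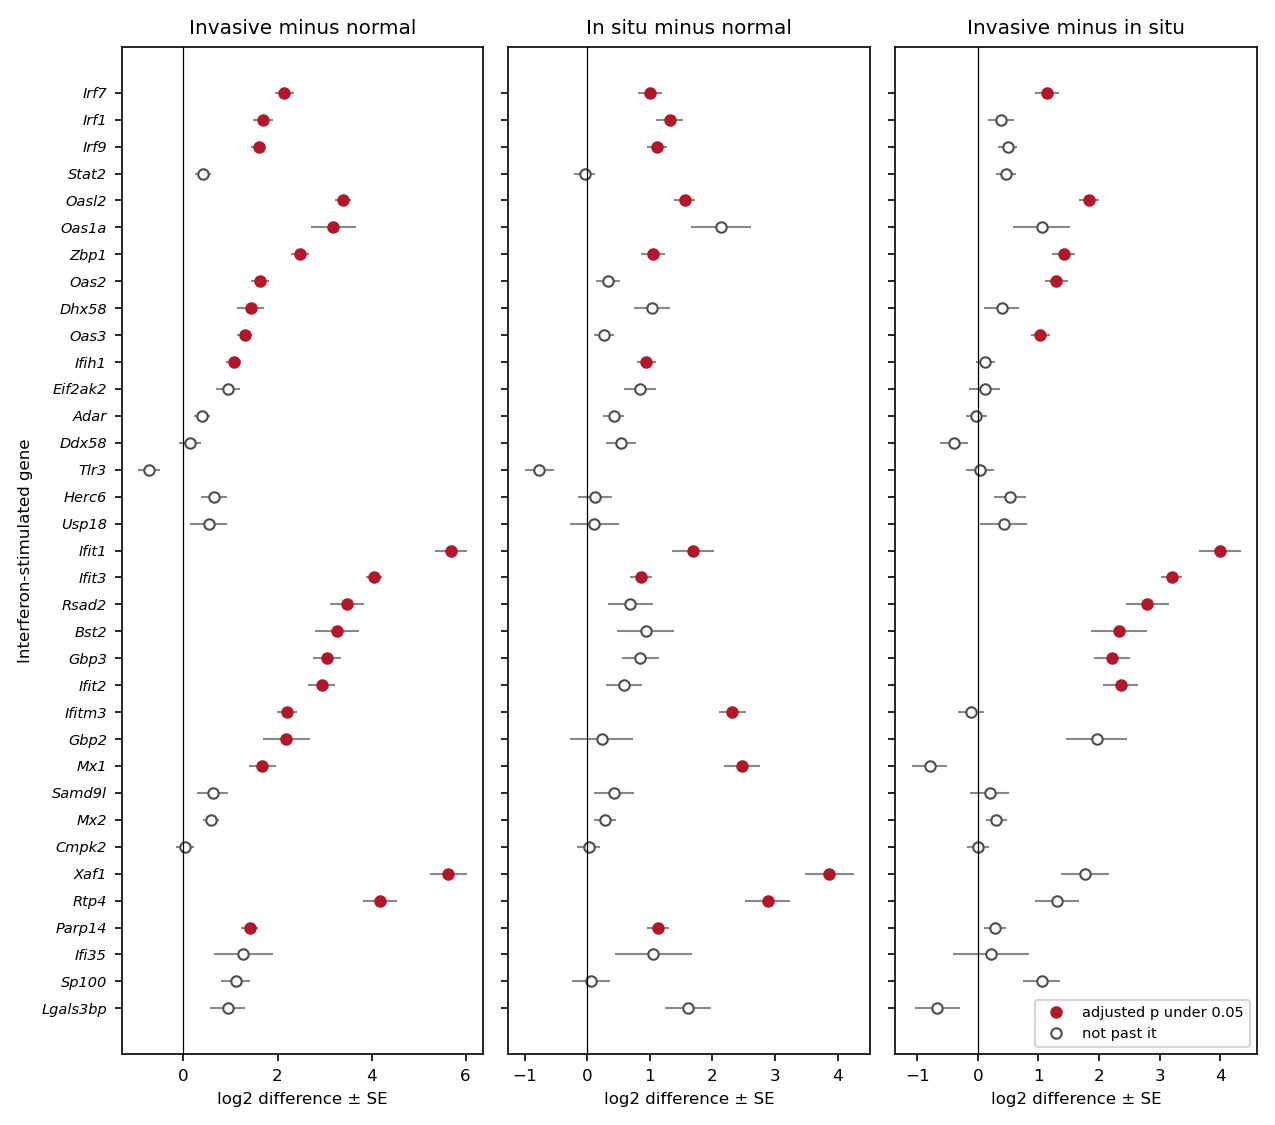
Log2 difference of each measured interferon-stimulated gene (horizontal axis, with the SE of the linear model as bars) in the 3 comparisons, filled where the adjusted p was under 0.05. Filled points lie to the right of 0 in every panel, 22, 13 and 11 of them, and each panel has its own horizontal range.

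More than 1 probe set was available for 16 of the 35 members, and the other 19 had 1. Cmpk2, Herc6, Eif2ak2, Ifi35 and Sp100 had another probe set that passed for invasive carcinoma against normal urothelium while the one used did not. That of Sp100 read 6.81 and 6.62 in invasive carcinoma, 5.93 and 6.22 in carcinoma in situ, and 5.34 and 5.61 in normal urothelium, with no overlap of the 3 groups. In carcinoma in situ against normal urothelium, Rsad2, Gbp2, Eif2ak2, Ifi35 and Adar had another probe set that passed as higher while the one used did not. For Gbp2 it gave 1.27 ± 0.19 (limma adjusted p = 0.0219), and it also passed between the lesions (1.34 ± 0.19, adjusted p = 0.0225). For Adar the adjusted p was 0.0487. For Parp14 and Dhx58 only the probe set used passed for invasive carcinoma against normal urothelium. The second Parp14 probe set read 6.50 and 6.63 in invasive carcinoma, 6.34 and 6.79 in carcinoma in situ, and 6.37 and 6.85 in normal urothelium, and all groups overlapped. The other Dhx58 probe sets gave limma adjusted p = 0.888 and 0.364. For carcinoma in situ against normal urothelium the second probe sets of Zbp1, Xaf1, Rtp4 and Parp14 did not pass, while the ones used did. Their limma adjusted p-values were 0.335, 0.825, 0.879 and 0.937. For Adar a second probe set ran lower in the lesions, at 7.66 and 7.26 in invasive carcinoma, 7.40 and 7.54 in carcinoma in situ, and 8.14 and 8.90 in normal urothelium, while another ran higher, at 7.22 and 6.95 in invasive carcinoma, 7.17 and 7.46 in carcinoma in situ, and 5.79 and 6.38 in normal urothelium.

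**Figure D4:**
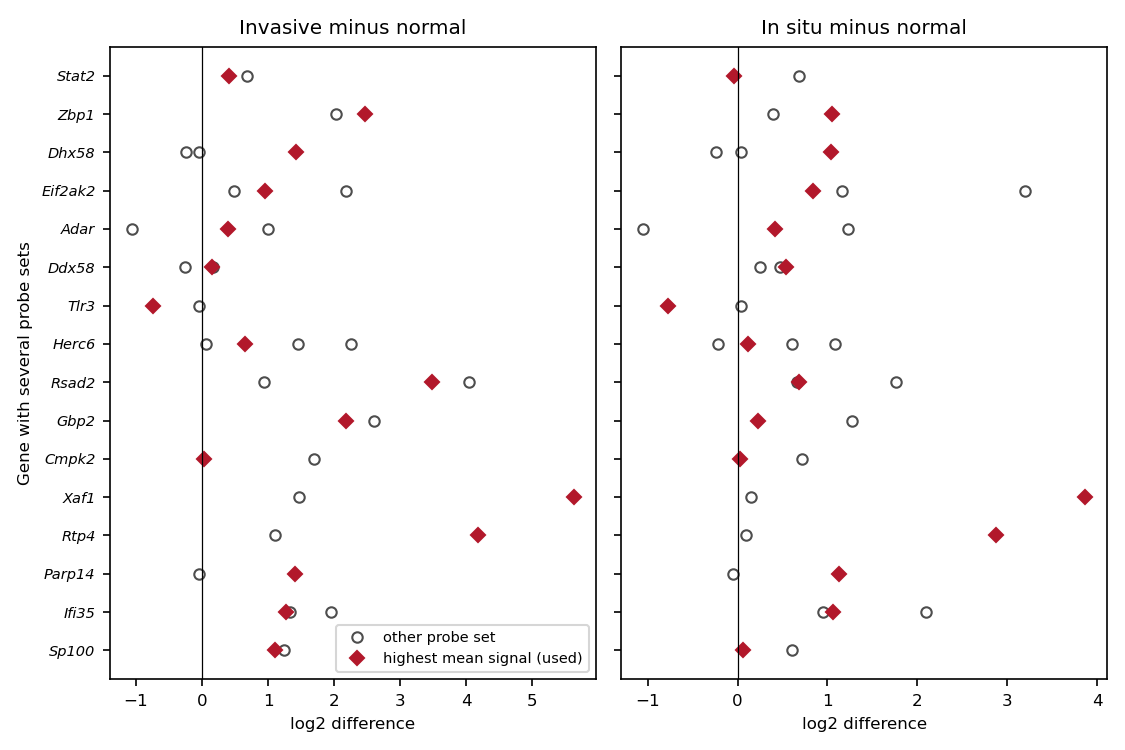
Log2 difference (horizontal axis) from normal urothelium for every probe set of the 16 members with more than 1, in invasive carcinoma (left) and carcinoma in situ (right). Diamonds mark the probe set used and open circles the others, and the circles of Xaf1, Rtp4 and Dhx58 lie left of their diamonds, while those of Cmpk2 and Ifi35 lie at or right of theirs except 1 of Ifi35 in carcinoma in situ.

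The genes around the interferon-stimulated genes in the pathway were read from 6 lists, of which 124 genes were measured. To set beside the counts below, 12.6% of all genes were higher in invasive carcinoma and 5.74% in carcinoma in situ than in normal urothelium. Between the lesions 4.18% of all genes were higher in invasive carcinoma. Called lower were 7.46%, 3.04% and 1.31% of all genes in these 3 comparisons. The interferons that were measured showed no call: of 10 measured ligand genes none passed by limma in any comparison, and at an unadjusted p under 0.05 there was 1 lower in each comparison and none higher. The list held 20 symbols, and no type III interferon gene, Ifnk or Ifne was among the measured ones, so these were not tested. Ifnb1, a type I interferon of epithelial cells, read 4.59 and 4.79 in invasive carcinoma, 4.59 and 4.63 in carcinoma in situ, and 4.90 and 4.76 in normal urothelium. Ifng, the type II interferon, read 3.0 and 3.21 in invasive carcinoma, 2.75 and 2.98 in carcinoma in situ, and 2.90 and 3.17 in normal urothelium. Each lesion overlapped normal urothelium for Ifng, and invasive carcinoma overlapped normal urothelium for Ifnb1. Both genes read below the median of every array, and at such signals a change in a rare transcript may not be detectable. The ligand with the largest difference from normal urothelium was Ifnz, at -1.37 ± 0.38 in invasive carcinoma and -1.41 ± 0.38 in carcinoma in situ, and neither passed (adjusted p = 0.0566 and 0.0829).

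Receptors and their kinases were tested through 9 genes, and 2 of them were higher in invasive carcinoma, against normal urothelium and against carcinoma in situ alike. Ifngr1, the ligand-binding chain of the type II receptor, read 10.72 and 10.57 in invasive carcinoma, 9.29 and 9.10 in carcinoma in situ, and 8.79 and 8.46 in normal urothelium. It was higher by 2.01 ± 0.19 than in normal urothelium (limma adjusted p = 0.00217) and by 1.44 ± 0.19 than in carcinoma in situ (adjusted p = 0.0144). Jak2, the kinase that serves this receptor, read 10.31 and 10.28 in invasive carcinoma, 9.17 and 9.28 in carcinoma in situ, and 9.15 and 9.12 in normal urothelium, with differences of 1.16 ± 0.15 from normal urothelium (adjusted p = 0.00579) and 1.07 ± 0.15 from carcinoma in situ (adjusted p = 0.0175). None of the 9 passed for carcinoma in situ against normal urothelium, with 1 higher at an unadjusted p under 0.05.

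Of 13 measured genes in the list of STAT and IRF factors, 4 were higher in invasive carcinoma and 2 in carcinoma in situ than in normal urothelium. They were Irf2bp2, a corepressor that binds Irf2 (1.89 ± 0.17 in invasive carcinoma, limma adjusted p = 0.00184, and 1.33 ± 0.17 in carcinoma in situ, adjusted p = 0.0130), Irf5, a factor of myeloid cells (1.13 ± 0.18, adjusted p = 0.01, and 0.83 ± 0.18, adjusted p = 0.0469), and, in invasive carcinoma, Rela, a subunit of NF-kappaB (0.93 ± 0.18, adjusted p = 0.0201) and Stat3 (0.76 ± 0.18, adjusted p = 0.0356). Against normal urothelium 12.6% of all genes were higher and 7.46% lower in invasive carcinoma. Among 16 adaptors and kinases of nucleic acid sensing, 3 (18.8%) were higher and 1 lower there, which is near those shares. Higher were the DNA sensor gene Ifi204 (3.30 ± 0.33, adjusted p = 0.00243), the inflammasome sensor Aim2 (1.12 ± 0.18, adjusted p = 0.0102) and Sting1, the adaptor of cytosolic DNA sensing (1.03 ± 0.17, adjusted p = 0.0113), and Tbk1, the kinase that activates Irf3, fell by 0.83 ± 0.21 (adjusted p = 0.0423). Ifi204 (1.87 ± 0.33, adjusted p = 0.0278) and Aim2 (1.38 ± 0.18, adjusted p = 0.0133) were also higher in carcinoma in situ. Aim2 read 3.92 and 3.83 in invasive carcinoma, 4.24 and 4.03 in carcinoma in situ, and 2.64 and 2.87 in normal urothelium. These readings lie below the median of every array, so the Aim2 calls rest on low signal. Ifi204 also read low in normal urothelium, at 3.46 and 2.52. Ikbke, the relative of Tbk1, was lower in invasive carcinoma than in carcinoma in situ (-0.99 ± 0.17, adjusted p = 0.0336).

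Of 14 measured negative regulators 7 were higher in invasive carcinoma and 2 in carcinoma in situ than in normal urothelium, and 4 in invasive carcinoma than in carcinoma in situ. Socs3, which blocks Jak kinases, read 10.66 and 10.71 in invasive carcinoma, 8.61 and 8.48 in carcinoma in situ, and 7.58 and 7.89 in normal urothelium. The invasive difference was 2.95 ± 0.18 from normal urothelium (limma adjusted p = 0.000694) and 2.14 ± 0.18 from carcinoma in situ (adjusted p = 0.00384). Tnfaip3, the ubiquitin-editing brake on NF-kappaB, was higher in invasive carcinoma by 3.05 ± 0.29 than in normal urothelium (adjusted p = 0.00223) and by 1.93 ± 0.29 than in carcinoma in situ (adjusted p = 0.0217). Samhd1, which degrades nucleotides, was higher by 1.79 ± 0.24 than in normal urothelium (adjusted p = 0.00652) and by 1.88 ± 0.24 than in carcinoma in situ (adjusted p = 0.0138). In carcinoma in situ the called genes were Rnaseh2a, a subunit of the enzyme that removes RNA from DNA (1.75 ± 0.23, adjusted p = 0.0143, and 1.20 ± 0.23 in invasive carcinoma, adjusted p = 0.0195), and the phosphatase gene Ptpn1 (1.35 ± 0.27, adjusted p = 0.0400).

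A further list of interferon-induced genes outside the members had 62 measured, of which 32 were higher and 0 lower in invasive carcinoma than in normal urothelium, with 44 higher and 0 lower at an unadjusted p under 0.05 by limma. Ifitm1, a relative of Ifitm3, read 11.83 and 11.63 in invasive carcinoma, 9.41 and 9.51 in carcinoma in situ, and 7.24 and 6.69 in normal urothelium. Its 3 groups did not overlap, and invasive carcinoma was higher by 4.76 ± 0.23 over normal urothelium (adjusted p = 0.000491) and by 2.27 ± 0.23 over carcinoma in situ (adjusted p = 0.00636). Plscr1, a phospholipid scramblase, read 9.58 and 9.01 in invasive carcinoma, 8.90 and 8.16 in carcinoma in situ, and 4.59 and 4.56 in normal urothelium. It differed from normal urothelium by 4.72 ± 0.31 in invasive carcinoma (adjusted p = 0.00083) and by 3.95 ± 0.31 in carcinoma in situ (adjusted p = 0.00504).

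Both lesions stood far above normal urothelium for Plscr1. Iigp1, a GTPase of the immunity-related family, was higher in invasive carcinoma by 4.40 ± 0.56 (adjusted p = 0.00544), and Ifi27l2a, a small mitochondrial protein gene, by 3.71 ± 0.65 (adjusted p = 0.0145).

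In carcinoma in situ 15 of the 62 were higher and 0 lower than in normal urothelium, with 24 higher and 0 lower at an unadjusted p under 0.05. Beside Plscr1 and Ifitm1 they included Slfn2, a growth regulator of immune cells (2.53 ± 0.32, limma adjusted p = 0.0126) and Mlkl, the executor of necroptosis (2.32 ± 0.40, adjusted p = 0.0277). Between the lesions 12 were higher in invasive carcinoma and 1 lower. Iigp1 was higher by 3.35 ± 0.56 (adjusted p = 0.0296), Plscr2 by 3.38 ± 0.49 (adjusted p = 0.0183), Trim30d by 3.12 ± 0.51 (adjusted p = 0.0281) and Gbp6, a further guanylate-binding protein, by 3.10 ± 0.56 (adjusted p = 0.0365), while Phf11d, named here after its value was seen as the 1 lower gene, gave -0.87 ± 0.16 (adjusted p = 0.0356). Trim30d and Gbp6 did not separate carcinoma in situ from normal urothelium, whose arrays overlapped for both.

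**Figure D5:**
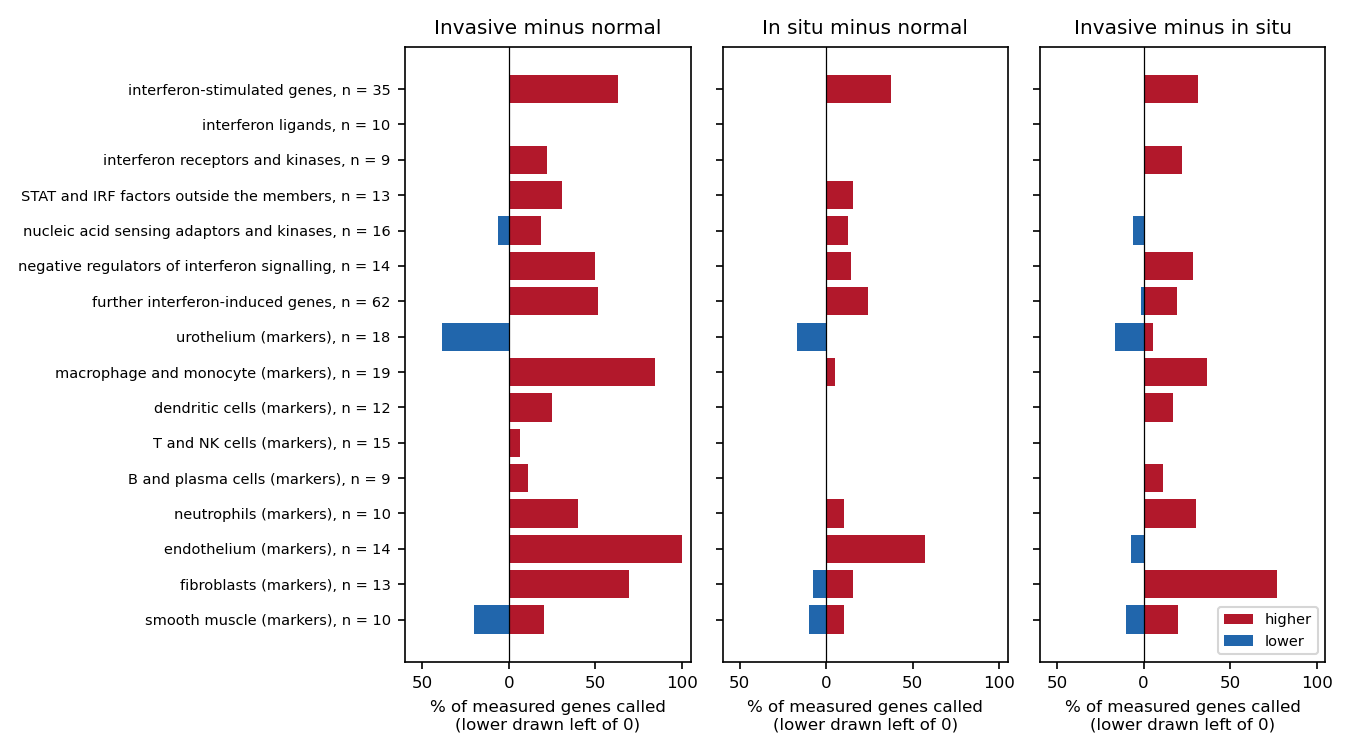
Percentage of the measured genes of each list that were called higher (red, right of 0) or lower (blue, left of 0) in the 3 comparisons, with the number measured beside the name of the list. The bars of the interferon-stimulated genes stand for 22, 13 and 11 of 35, the ligand list has no bar, and the bars of the macrophage, endothelial and fibroblast markers are long in 1 or more panels.

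Markers of several other cell types were also higher in invasive carcinoma. In captured tissue more cells of a type and more RNA per cell cannot be told apart. In carcinoma in situ against normal urothelium the lists went different ways. Their median log2 differences were 1.37 for endothelium, 0.86 for macrophages and monocytes, 0.45 for neutrophils and 0.01 for dendritic cells. They were -0.24 for T and NK cells, -0.31 for fibroblasts, -0.38 for B and plasma cells and -1.45 for smooth muscle, against 0.86 for the members. For the counts of markers, 12.6% of all genes were higher in invasive carcinoma and 5.74% in carcinoma in situ than in normal urothelium. Between the lesions 4.18% were higher in invasive carcinoma. Of 19 measured macrophage and monocyte markers 16 were higher in invasive carcinoma and 1 in carcinoma in situ than in normal urothelium, and 7 were higher in invasive carcinoma than in carcinoma in situ. Their summed linear signal was 31288 and 47871 in invasive carcinoma, 10547 and 11259 in carcinoma in situ, and 7464 and 6033 in normal urothelium. Ctss, the lysosomal protease cathepsin S, was the marker called in carcinoma in situ, and it read 12.32 and 12.58 in invasive carcinoma, 10.57 and 10.69 in carcinoma in situ, and 8.40 and 9.11 in normal urothelium. The summed linear signal of the 35 members, for comparison, was 31940 and 32558 in invasive carcinoma, 22446 and 21798 in carcinoma in situ, and 9060 and 10984 in normal urothelium. Fibroblast markers were higher in invasive carcinoma for 9 of 13 against normal urothelium and for 10 of 13 against carcinoma in situ, with a summed signal of 37436 and 65303 in invasive carcinoma, 3346 and 3230 in carcinoma in situ, and 6528 and 4165 in normal urothelium. In carcinoma in situ 2 of the 13 were higher and 1 was lower than in normal urothelium. Whether macrophages or fibroblasts in the captured regions carried part of the interferon-stimulated signal was not tested.

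Of the endothelial markers 14 of 14 were higher in invasive carcinoma and 8 of 14 in carcinoma in situ than in normal urothelium. Their summed signal was 3658 and 4414 in invasive carcinoma, 3352 and 3082 in carcinoma in situ, and 993 and 1096 in normal urothelium. For neutrophils 4 of 10 markers were higher in invasive carcinoma and 1 in carcinoma in situ than in normal urothelium, and for dendritic cells 3 of 12, Bst2 itself, Itgax and Tcf4, were higher in invasive carcinoma. Among lymphocyte markers 1 of 15 T and NK cell genes, Cd3g, and 1 of 9 B and plasma cell genes, Jchain, were higher in invasive carcinoma than in normal urothelium. These shares of 6.67% and 11.1% lie below the 12.6% of all genes. The T and NK cell markers summed to 1121 and 1407 in invasive carcinoma, 1204 and 1156 in carcinoma in situ, and 1168 and 1309 in normal urothelium. Smooth muscle markers gave 2 higher and 2 lower of 10 in invasive carcinoma against normal urothelium, beside 12.6% and 7.46% of all genes. The part of endothelial and other cells in the members' differences was not tested.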

How the data were processed

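The labels' protocols describe laser capture of urothelium from frozen, stained bladder sections and a column-based RNA extraction. The deposited log2 values are 1 signal per probe set and array, made by the authors with RMA in Partek per the submitters' processing notes, versions not given in the sources used here. RMA brings the arrays to a common distribution, so a shift of all genes together would not show. The authors also deposited signed fold changes between group averages, a score with a minus sign for lower, which matched differences of group means of the log2 values within 0.006 for 45097 to 45100 of 45101 probe sets and were not used further.

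Of 45101 probe sets 34958 carry 1 symbol, 932 several and 9211 none in the platform's annotation, and after leaving out controls 34945 probe sets of 18193 genes were tested, 1 per gene. Groups were compared with limma 3.58.1 in R 4.3.3 (lmFit with 3 group means, then eBayes, residual df 3, prior df 2.69), two-sided, with Benjamini-Hochberg adjustment over 18193 genes. The script was tested on simulated data. Intervals are 95% intervals of the model. The number of arrays limits the precision. Promoter windows and gene order came from RefSeq tables of GRCm38.p6, scanned with Python 3.11.15.

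The members and lists were chosen with earlier results of these data known. All members are accounted for. Those past the threshold in any comparison and the member with the highest mean in each role are given per array, and of each pathway list up to 4 called genes that changed most, or up to 2 where no gene was called. The groups share replicate numbers 1 and 2, but the differences between array 1 and array 2 correlated at -0.385 to 0.375 between groups, so the numbers were not used as pairs. Alternatives were each array left out, a replicate block, the mean over a gene's probe sets, every probe set tested, a filter on low signal (at least 5 on 2 arrays), median centring, quantile normalization, trend and robust eBayes, fits of the compared groups alone, averaged carcinoma in situ arrays, and the fit without normal array 2 and invasive array 1.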

Additional observations from a re-analysis of the deposited data

How the results depend on the processing

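The count of 22 members for invasive carcinoma against normal urothelium was 16 to 26 with 1 array left out and stayed within 1.5 times in every alternative run. For carcinoma in situ against normal urothelium, 13 members became 0 to 19 with 1 array left out, 8 with the replicate block, 8 with the compared groups alone, 0 with the carcinoma in situ arrays averaged (limma, 15 at an unadjusted p under 0.05) and 26 without normal array 2 and invasive array 1. For invasive carcinoma against carcinoma in situ, 11 became 1 to 16 with 1 array left out, 1 with the carcinoma in situ arrays averaged and 18 without normal array 2 and invasive array 1. Over the 6 pathway lists, 49 genes called for invasive carcinoma against normal urothelium became 25 to 64 with 1 array left out, 32 with the compared groups alone, 32 with the carcinoma in situ arrays averaged and 78 without that pair of arrays. Against normal urothelium, the 21 called for carcinoma in situ became 0 to 38, 12, 0 and 60 in these 4 settings, and the 20 called between the lesions became 0 to 30 with 1 array left out, 0 with the averaged arrays and 55 without the pair. Averaging the carcinoma in situ arrays leaves that group 1 array by construction; the other causes were not tested.

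The replicate block changed no other count by over 1.5 times: it left 22 members for invasive carcinoma against normal urothelium and 11 between the lesions. The correlations of same-numbered arrays were -0.385 between carcinoma in situ and normal urothelium, 0.375 for invasive carcinoma with normal urothelium and -0.344 between the lesions. Among the member differences, 40 had an unadjusted p of at least 0.05, and 16 of these changed sign in 1 or more of 16 settings. Each array was also centred on its median over the 18193 tested genes, which is not the median over all probe sets. The median log2 difference of all genes then stood at -0.27 for invasive carcinoma against normal urothelium, -0.11 for carcinoma in situ against it, and -0.19 between the lesions. The members' medians became 1.33, 0.75 and 0.33 with this centring. With it Tlr3 passed as lower in invasive carcinoma, as it did with quantile normalization, without invasive array 1 and without the pair.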
